A study of Arabidopsis thaliana with 30 samples.

Results

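The zinc finger genes described here are 10 Arabidopsis thaliana genes, of 32548 genes in the deposited table, that encode small transcription repressors or RNA-binding proteins of the stress response. They were taken by locus code: ZAT10 (AT1G27730), ZAT12 (AT5G59820), ZAT6 (AT5G04340), ZAT7 (AT3G46090), ZAT11 (AT2G37430), ZAT5 (AT2G28200), AZF1 (AT5G67450), AZF2 (AT3G19580), SZF1 (AT3G55980) and SZF2 (AT2G40140). The genes were chosen by their values in the mutants against the wild type, with earlier results of these data known, so those values are a description and carry no test. The data are messenger RNA values of 12-day-old whole seedlings grown on Murashige and Skoog plates under long days without treatment, in 30 libraries with 3 for each of 10 genotypes. The groups are the wild type, Col-0, and 9 mutants of GCN5 and of proteins that work with it: the single mutants gcn5, ada2b, eaf6, sdrl, ing1, spc and ada2a and the double mutants ada2aspc and spcing1. The labels give no allele, no hour of harvest and no number of seedlings per library, and do not tell whether replicates were grown separately. The error behind each p-value and SE is the variation among libraries of a genotype, pooled over the 10 genotypes. Part of it may be technical.

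GCN5 adds acetyl groups to histones, a mark of active genes, as the enzyme of larger protein complexes. In the study's scheme ADA2B is the partner of GCN5 in the conserved SAGA complex, and ADA2A, SPC, ING1, SDRL and EAF6 belong with GCN5 to a plant-specific complex. The ZAT and AZF proteins carry C2H2 zinc fingers that bind DNA and an EAR motif that recruits corepressors such as TOPLESS and histone deacetylases. Their genes are switched on within minutes to hours by cold, salt, wounding, touch, high light and reactive oxygen. SZF1 and SZF2 carry tandem CCCH zinc fingers, a fold that binds RNA, and take part in the response to salt. Many such early genes have W boxes before their start, the sites of WRKY factors, which are themselves stress-induced.

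The 250 bases before the annotated start of each gene were read from the TAIR10.1 genome (RefSeq) and searched on both strands for 6 short motifs. The W box core, TTGAC or its reverse complement GTCAA, was found before 9 of the 10 genes, against 44.9% of 27443 windows of the same length before protein-coding genes. At least 2 cores lay before 6 of the 10, against 14.1% of all windows. SZF1 had 4 cores, ZAT10, ZAT5 and AZF1 had 1 each, and the other 5 genes with a core had 2 each. ZAT6 is the gene with no core in its window. The G box CACGTG lay before 0 of the 10 genes (6.49% of all windows), the GCC box GCCGCC before ZAT10 and ZAT6, which is 2 of 10 (1.87%), and the DRE core CCGAC before 3 (12.0%). The core CGCG, shared by sites of calmodulin-binding CAMTA factors, lay before 2 genes (10.14%) and the longer CGCGTT before 0 (2.59%). A match is a description of letters and not evidence of binding.

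The windows of the tandem CCCH pair, ZAT10, ZAT12 and ZAT7 are shown because the comparisons below turn on these genes. ZAT7 is shown with AT3G46080, the zinc finger gene beside it on chromosome 3. Letters run 5′ to 3′ on the strand of the gene, and capitals mark W box cores. SZF1 lies at chr3:20775970-20776219 (plus strand), SZF2 at chr2:16771747-16771996 (plus), ZAT10 at chr1:9649324-9649573 (minus), ZAT12 at chr5:24102564-24102813 (plus), ZAT7 at chr3:16926884-16927133 (minus) and AT3G46080 at chr3:16923300-16923549 (minus).
SZF1: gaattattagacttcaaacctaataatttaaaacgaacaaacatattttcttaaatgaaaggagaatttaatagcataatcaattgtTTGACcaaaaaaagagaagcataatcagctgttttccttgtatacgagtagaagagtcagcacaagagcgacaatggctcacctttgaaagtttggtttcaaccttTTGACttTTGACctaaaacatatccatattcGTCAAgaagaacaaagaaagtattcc
SZF2: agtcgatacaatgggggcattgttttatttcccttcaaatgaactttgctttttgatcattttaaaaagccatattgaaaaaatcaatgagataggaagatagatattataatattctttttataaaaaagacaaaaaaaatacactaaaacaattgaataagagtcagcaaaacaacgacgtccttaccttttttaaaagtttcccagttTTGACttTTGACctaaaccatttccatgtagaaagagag
ZAT10: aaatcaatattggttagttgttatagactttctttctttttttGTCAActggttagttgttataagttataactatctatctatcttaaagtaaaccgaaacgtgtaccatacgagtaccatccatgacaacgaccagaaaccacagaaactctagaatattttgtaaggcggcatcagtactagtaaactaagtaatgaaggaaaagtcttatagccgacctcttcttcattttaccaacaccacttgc
ZAT12: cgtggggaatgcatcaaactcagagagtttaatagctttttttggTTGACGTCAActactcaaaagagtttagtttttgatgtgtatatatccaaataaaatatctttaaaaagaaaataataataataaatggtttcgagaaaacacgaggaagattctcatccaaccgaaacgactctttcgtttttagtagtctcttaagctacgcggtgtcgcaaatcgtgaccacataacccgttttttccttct
ZAT7: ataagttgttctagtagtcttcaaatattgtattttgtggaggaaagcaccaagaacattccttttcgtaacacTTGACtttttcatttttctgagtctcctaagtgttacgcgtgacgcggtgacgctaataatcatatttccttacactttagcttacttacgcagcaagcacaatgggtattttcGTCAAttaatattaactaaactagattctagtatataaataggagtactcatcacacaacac
AT3G46080: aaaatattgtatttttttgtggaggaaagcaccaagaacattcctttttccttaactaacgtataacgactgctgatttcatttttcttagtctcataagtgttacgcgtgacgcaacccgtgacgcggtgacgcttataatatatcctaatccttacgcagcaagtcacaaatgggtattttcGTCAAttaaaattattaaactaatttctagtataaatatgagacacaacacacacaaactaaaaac
SZF1 and SZF2 share a run of 19 bases, ttttgacttttgacctaaa, that holds a pair of W box cores and starts 59 bases before SZF1 and 41 bases before SZF2. No other pair among the 10 genes shares a run as long. ZAT7 and AT3G46080 share a run of 34 bases, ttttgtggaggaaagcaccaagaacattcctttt, and their coding sequences are 88.2% identical over the alignment, so reads of the ZAT7 pair may have been split between them in a way that depends on the authors' counting. Coding sequences of ZAT10 and ZAT6 were 71.7% identical, of ZAT12 and ZAT7 69.4%, and of SZF1 and SZF2 66.4%.

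**Figure D1:**
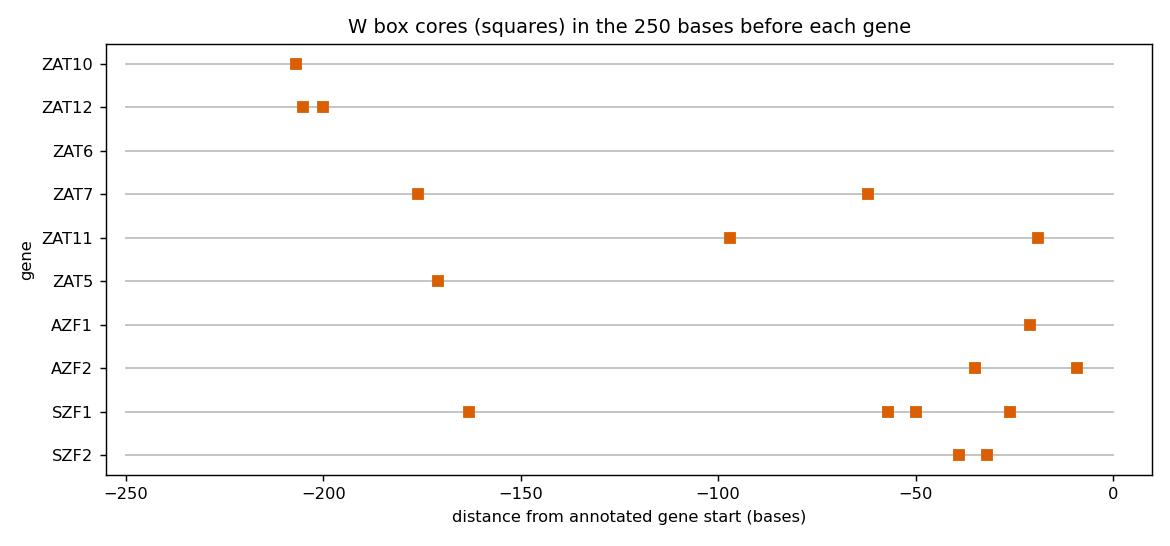
Position of W box cores (squares) in the 250 bases before each of the 10 genes, by distance in bases from the annotated gene start. SZF1 has 4 cores, 3 of them in the last 57 bases, ZAT12 has 2 adjoining cores at 205 and 200 bases, and ZAT6 has none.

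The deposited values are a normalised signal, and their totals per library ran from 30914000 to 41548748. Replicates correlated across genes with Pearson's r of 0.979 to 0.984. All 10 genes passed the filter on low values, which asked for at least 10 in at least 3 libraries. ZAT7 reached 10 in 26 libraries, ZAT11 in 22 and the other 8 genes in all 30. Transcripts of the mutated genes were lower in their own mutants: ADA2A fell from 589 in Col-0 to 14.7 in ada2a and 6.44 in ada2aspc, ING1 from 707 to 159 in ing1 and 146 in spcing1, and AT4G14385 (EAF6) from 825 to 118 in eaf6. GCN5 was at 305 in gcn5 against 619 in Col-0, and ADA2B at 1084 in ada2b against 1500.5. No such check was made for spc and sdrl. Some libraries stood apart for these genes: replicate 3 of ada2b was the highest of its genotype for 7 of the 10 genes, replicate 3 of eaf6 for 8 and replicate 2 of ada2aspc for 6, and replicate 3 of gcn5 was the lowest for 8. Values below are signal means ± SD (n = 3), and log2 differences of log2(signal + 1) ± SE from limma, which understate the change of low genes.

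ZAT10, a repressor induced by salt, cold and drought and known as STZ, was called higher than Col-0 in all 9 mutants. Its libraries were at 89.8, 95.4 and 165 in Col-0, at 447, 529.6 and 288 in gcn5, and at 1143, 1053 and 1967 in ada2b. In ada2a they were at 1582, 1852 and 1667 and in spc at 2068, 2442 and 2530.0. No library of any mutant reached down to the Col-0 range, and the spc libraries were the highest of all 30. The libraries of ing1 were at 664, 589 and 508, of sdrl at 531, 720.3 and 653, and of eaf6 at 646, 544 and 891. The double mutant ada2aspc was at 305, 533 and 347 and spcing1 at 820.4, 985 and 1102. The means thus ranged from 3.39 times Col-0 in ada2aspc to 20.1 times in spc, with log2 differences of 1.76 ± 0.24 and 4.37 ± 0.24. In the order of means, spc, ada2a, ada2b, spcing1, eaf6, sdrl, ing1, gcn5, ada2aspc and Col-0, neighbours overlapped except spc with ada2a and ada2aspc with Col-0.

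ZAT12, which answers to reactive oxygen and is needed for APX1 expression under oxidative stress, was likewise called higher in all 9 mutants. It was at 81.7, 57.3 and 96.6 in Col-0, 399, 329.7 and 254 in gcn5, and 455, 366 and 814 in ada2b. The ada2a libraries were at 407, 561 and 472 and those of spc at 539, 631 and 657. These 4 mutants had the highest means, 4.17 to 7.75 times Col-0. Libraries of ing1, sdrl, eaf6 and spcing1 lay between 122 and 279, and those of ada2aspc at 102, 151 and 118, just above the highest Col-0 library. ZAT12 in ada2aspc, at a log2 difference of 0.66 ± 0.26, was the smallest of its differences, and its call was lost when Col-0 replicate 1 or 2 or ada2aspc replicate 2 or 3 was left out, and with column totals, no filter or a pseudocount of 16.

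AZF1 and AZF2 encode repressors that respond to abscisic acid and salt. AZF1 was called higher in all 9 mutants, from a mean of 83.5 ± 22.9 in Col-0 to 174 ± 41.2 in gcn5, its lowest mutant, and 405 ± 92.3 in spc, its highest. No mutant library was under 141, and the highest Col-0 library was at 109. AZF2 was at 194 ± 42.6 in Col-0 and 200.5 ± 8.90 in gcn5, a log2 difference of 0.07 ± 0.18 that did not pass. It was highest in ada2a (491 ± 35.3) and spc (446 ± 19.8) and was called in 7 mutants, without gcn5 and ada2aspc. Its call in spcing1 was lost without Col-0 replicate 2, and it was called in ada2aspc without replicate 1 of Col-0 or of ada2aspc. In sdrl its value of 263 ± 28.9 against Col-0 overlapped the Col-0 libraries, and its call there was lost without Col-0 replicate 2 or 3 or sdrl replicate 2 or 3, and with column totals, no filter or a fit of these groups alone.

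ZAT6, linked to phosphate homeostasis and cadmium tolerance, had its highest mean in ada2b, at 627, 654 and 905 against 232, 196 and 182 in Col-0. The gcn5 libraries were at 519, 538 and 401. ZAT6 was called in 6 mutants, and its log2 difference was 0.26 ± 0.18 in ing1, 0.20 ± 0.18 in sdrl and 0.42 ± 0.18 in ada2aspc, none of which passed. Its call in spcing1 was lost without Col-0 replicate 3 or spcing1 replicate 1.

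ZAT7, a salt tolerance gene of low level, separated the mutants in another way. In Col-0 it was at 5.40, 10.04 and 32.2, in gcn5 at 15.1, 10.5 and 5.38, and in ada2b at 5.90, 6.03 and 21.1. These 3 genotypes overlapped. In ada2a it was at 114, 140.3 and 107, in spc at 175, 209 and 315, and in eaf6 at 73.0, 92.1 and 237. Libraries of ing1 lay at 42.7, 45.3 and 46.5 and those of sdrl at 31.9, 55.8 and 64.2. The 2 double mutants were uneven, with 13.5, 80.1 and 14.3 in ada2aspc and 39.5, 107 and 90.6 in spcing1. ZAT7 was called in 6 mutants. The calls in ing1 and sdrl were each lost when 1 of 2 libraries was left out, Col-0 replicate 1 or 2 for ing1, and Col-0 replicate 1 or sdrl replicate 3 for sdrl. Its neighbour AT3G46080, named for its similar coding sequence, was called in 0 of the 9 mutants, with means between 6.55 in sdrl and 24.7 in spc.

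ZAT5, a further C2H2 gene of the group, had an order of genotypes of its own. It was at 285 ± 59.1 in Col-0, 327 ± 60.7 in gcn5 and 273 ± 24.4 in ada2b, and neither mutant was called. The gcn5 log2 difference of 0.20 ± 0.14 became 0.40 with column totals and 0.36 without Col-0 replicate 1, and was called in both cases. The other 7 mutants were all called, from 467 ± 50.8 in ada2a to 768 ± 55.2 in ada2aspc and 917 ± 52.3 in spcing1, where its log2 difference was 1.70 ± 0.14. The double mutants thus had the highest ZAT5 means, but the sdrl libraries, at 894, 613 and 785, overlapped those of both. ZAT11, linked to nickel sensitivity and to cell death under hydrogen peroxide, stayed low and scattered, between 0.981 and 38.1 over the 30 libraries, and was called in 0 of the 9 mutants by limma. Its log2 differences lay between -0.35 and 1.496, with an SE of 0.73. The largest, in spcing1, where the libraries did not overlap those of Col-0, was called with a pseudocount of 16 and with a fit of these groups alone. The gcn5 libraries (19.5 to 23.2) did not overlap those of Col-0 either, at a log2 difference of 1.10.

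SZF1, a salt-inducible tandem CCCH gene, had the largest difference of the 10 genes in ada2a, spc, ing1, sdrl and ada2aspc. Its libraries were at 674, 665 and 614 in Col-0 and at 15050.5, 15032 and 15006 in ada2a. In spc they were at 15823, 12571 and 15370.3. In ada2b they were at 4574, 4183 and 10652 and in gcn5 at 1484, 1434 and 977. The ada2a and spc means were 23.1 and 22.4 times Col-0 and did not overlap any other mutant. Libraries of ing1 (4624 to 5372), sdrl (4692 to 5504) and spcing1 (4666 to 5269) shared a common range, and eaf6 (2959 to 3671) and ada2aspc (2007 to 3457) lay below it. SZF1 was called higher in all 9 mutants, with log2 differences from 0.97 ± 0.21 in gcn5 to 4.53 ± 0.21 in ada2a.

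SZF2, its closest relative among the 10 genes, had the smaller log2 difference in each of the 9 mutants. It was at 1173, 1189.6 and 1345 in Col-0, 2512, 2336 and 1691 in gcn5, and 4666, 4752 and 9097 in ada2b. In ada2a it was at 4344, 4285 and 4268 and in spc at 4026, 3699 and 4463. The ada2b libraries were the highest of all and did not overlap those of ada2a and spc. The means of ing1, sdrl, eaf6, ada2aspc and spcing1 lay between 1460.4 and 1827. SZF2 was called in 8 mutants, without ada2aspc (0.24 ± 0.15), and its calls in sdrl (0.44 ± 0.15) and eaf6 (0.39 ± 0.15) were each lost when any of 4 single libraries was left out, among them Col-0 replicate 1, that in eaf6 also with no filter. Per kilobase of exon, the signal of SZF1 was 0.558 ± 0.0675 of that of SZF2 in Col-0, 0.626 ± 0.0193 in gcn5 and 1.06 ± 0.156 in ada2b. It was 3.68 ± 0.0291 in ada2a, 3.78 ± 0.310 in spc, 2.86 ± 0.243 in ing1, 3.16 ± 0.213 in sdrl and 2.14 ± 0.0515 in eaf6. Leaving aside gcn5 and ada2b, the libraries of the remaining 7 mutants thus had more SZF1 than SZF2 per length, down to 1.49 in ada2aspc, whereas all Col-0 and gcn5 libraries had less.

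**Figure D2:**
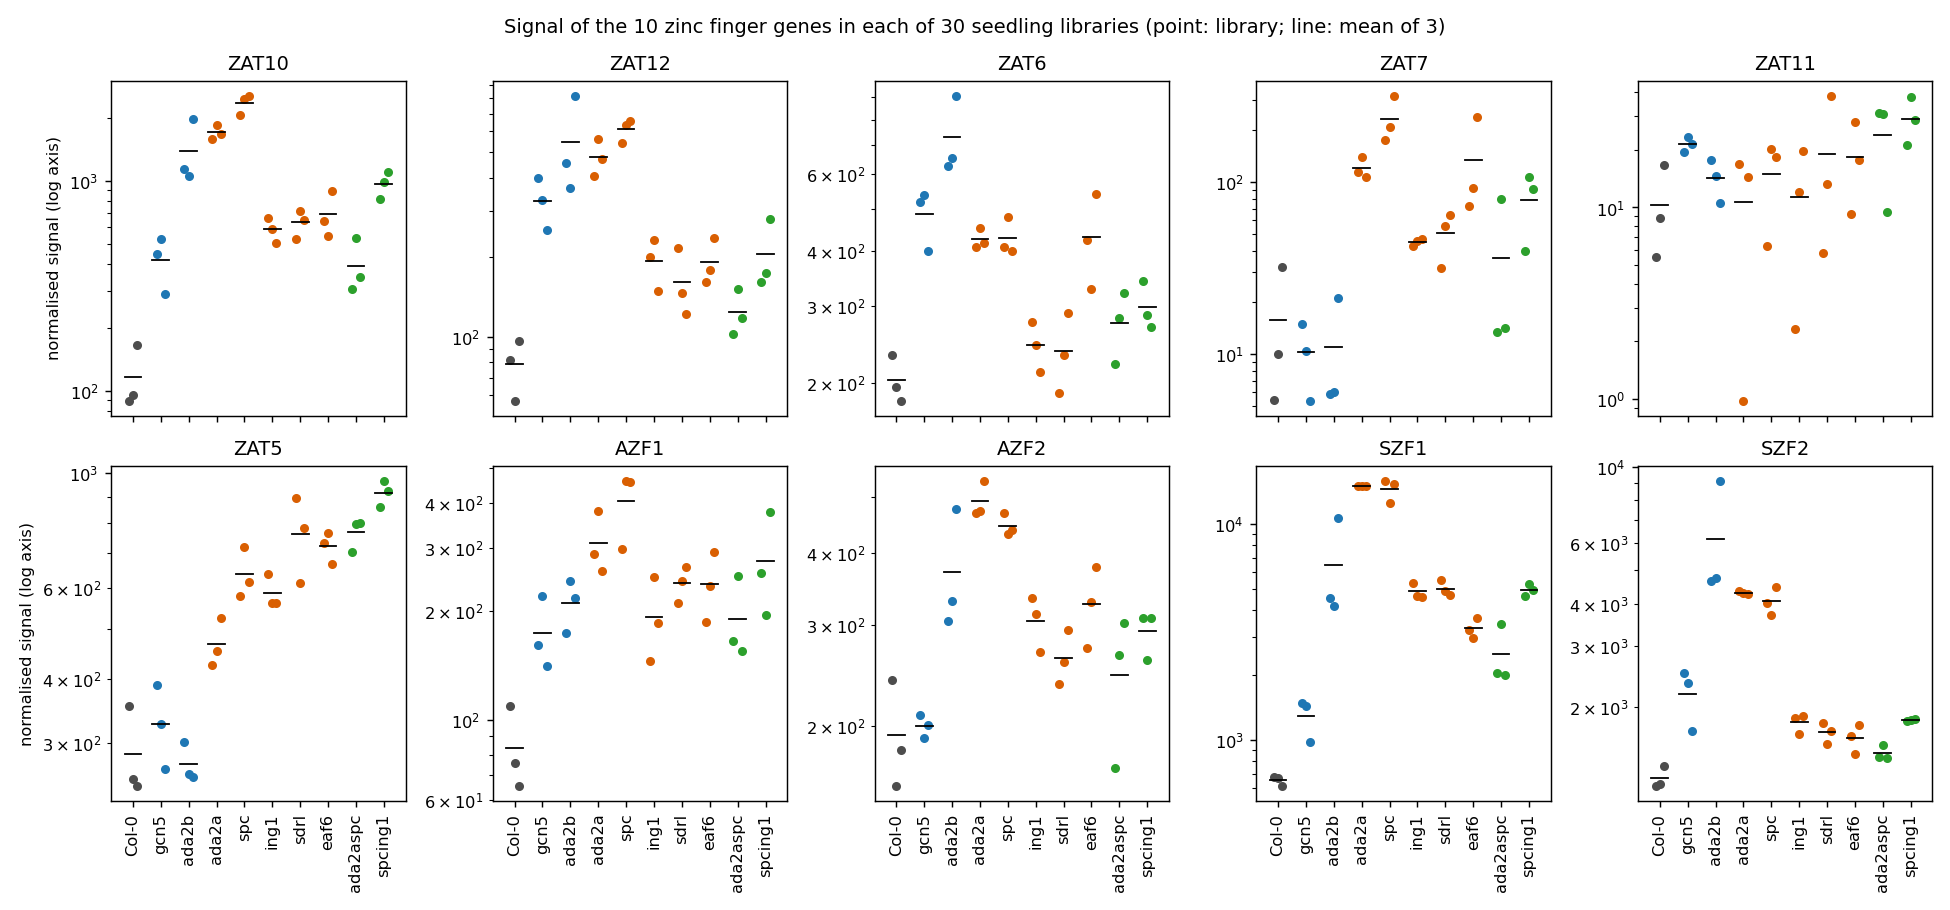
Normalised signal (log axis) of each of the 10 genes in every library; points are libraries and lines are means of 3. ZAT10, ZAT12, AZF1, SZF1 and SZF2 have every mutant library above the Col-0 libraries, ZAT7 and ZAT5 are near Col-0 in gcn5 and ada2b, and ZAT11 is low and scattered.

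**Figure D3:**
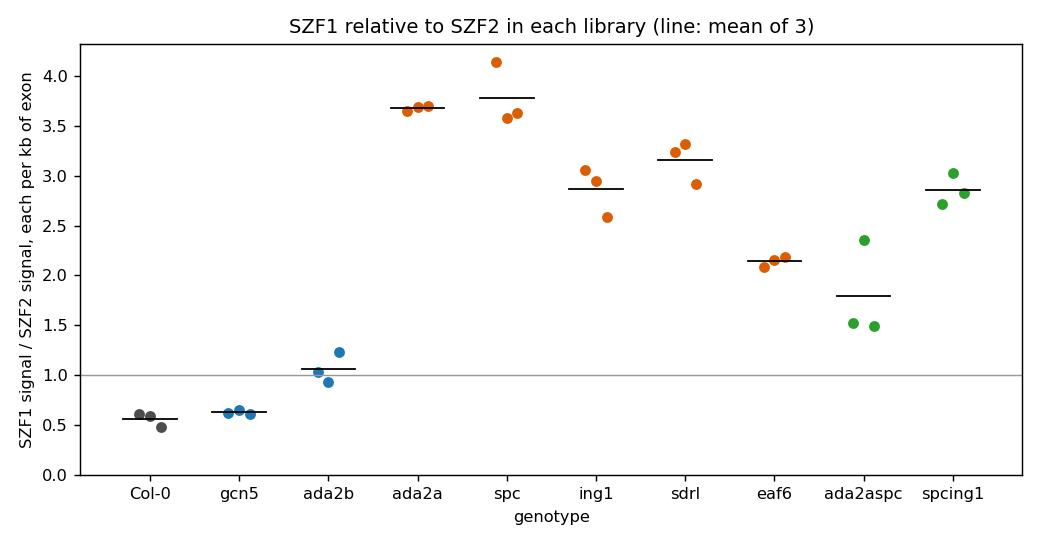
Signal of SZF1 divided by that of SZF2 in each library, each per kilobase of exon; points are libraries, short lines are means of 3 and the grey line marks equal signal. Col-0 and gcn5 lie below 1, ada2b near it and the other 7 mutants between 1.49 and 4.14.

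Counted over the 10 genes, 6 were called higher in gcn5, 7 in ada2b, 9 in ada2a, 9 in spc, 8 in ing1, 8 in sdrl, 9 in eaf6, 5 in ada2aspc and 9 in spcing1, at an adjusted p below 0.05 over all 21868 genes tested with limma. Of all genes tested, 18.2% were called higher in gcn5, 23.5% in ada2b, 15.1% in ada2a, 20.3% in spc, 17.5% in ing1, 17.0% in sdrl, 25.2% in eaf6, 21.7% in ada2aspc and 20.9% in spcing1. The genes were selected on these contrasts, so nothing is read from the counts. The median log2 difference of the 10 genes was lowest in gcn5 (1.02) and highest in spc (1.99), while that of all genes tested lay between -0.05 and 0.01. No gene of the 10 was called lower in any mutant. The 9 contrasts share the Col-0 libraries.

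**Figure D4:**
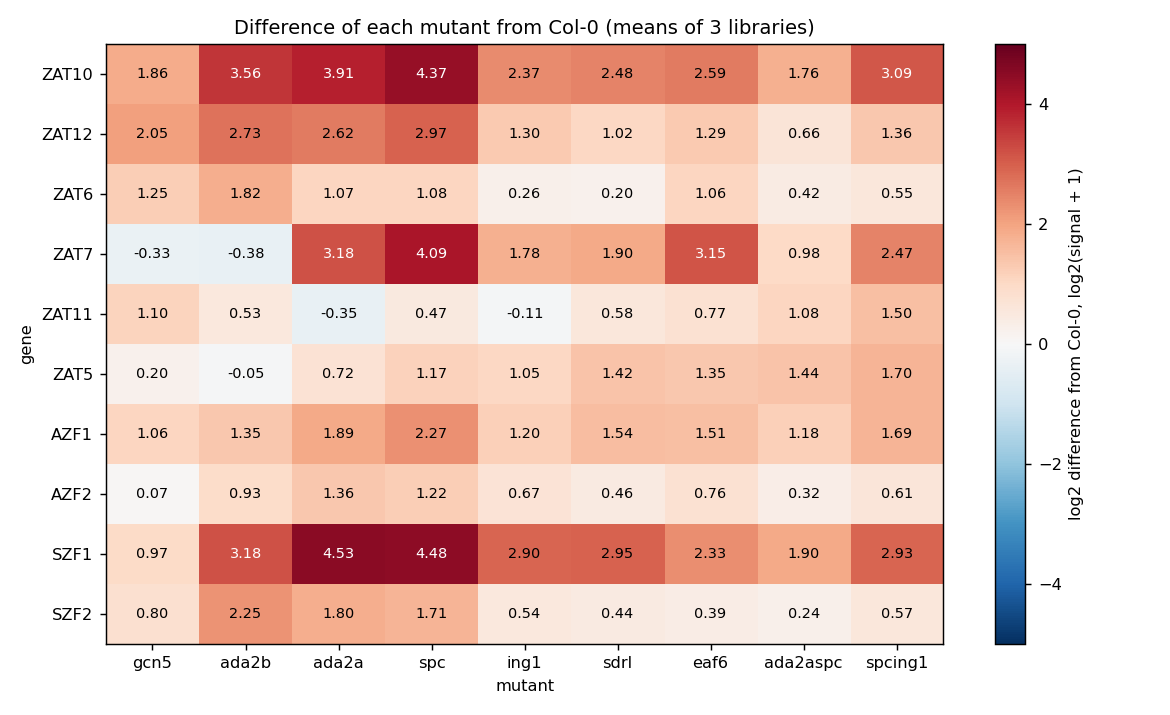
Log2 difference of each mutant from Col-0 for the 10 genes, on the scale of log2(signal + 1), as colour and number. The largest values are SZF1 in ada2a (4.53) and spc (4.48) and ZAT10 in spc (4.37), and the ZAT7 and ZAT5 entries of gcn5 and ada2b lie between -0.38 and 0.20.

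Whole seedlings differ in tissue, and fewer cells of a type cannot be told apart from less RNA per cell. Green shoot markers (4 of 5 detected, LHB1B2 listed at 0 in every genotype) summed to between 1363952 and 1415504 in Col-0 libraries, but to between 649427 and 689537 in gcn5 and between 463068 and 574908 in ada2b. In eaf6 they summed to between 958447 and 1121401, and the 5 root markers to between 113151 and 124109 against 65045 to 74803 in Col-0. In the other 6 mutants the green sums lay between 1216835 and 1421821. Guard cell markers (2 of 2) were at 1401 in Col-0, 757 in gcn5 and 579.9 in ada2b. Pollen markers summed to at most 8.83 and maturing seed markers to at most 155 in any library. Markers of handling and hour moved as well, and only those of the list with the smallest adjusted p against Col-0 are named here. The touch gene TCH3 was higher in all 9 mutants, with log2 differences from 1.23 in gcn5 to 4.64 in spcing1. TCH4 was higher in 8, without gcn5 (-0.58). The morning clock genes CCA1 and PRR9 were lower in all 9, by -2.27 to -5.97 and by -2.30 to -4.46. The part of tissue, handling or hour in the values of the 10 genes was not tested.

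The difference between gcn5 and ada2b, mutants of an enzyme and of its partner in a shared complex, was tested directly. The 10 genes were chosen with values of these same libraries known. The counts and p-values below are not independent of that choice. Of the 10 genes, 6 were higher in ada2b than in gcn5 and 0 were lower, where 19.6% of all genes were called higher and 22.6% lower. SZF1 was 4.61-fold higher (log2 difference 2.20 ± 0.21, adjusted p = 2.43e-09), ZAT10 3.26-fold (1.70 ± 0.24, adjusted p = 1.39e-06) and SZF2 2.73-fold (1.45 ± 0.15, adjusted p = 1.17e-08). AZF2 was 1.81-fold higher (0.85 ± 0.18, adjusted p = 0.000329). In these 4 genes all ada2b libraries lay above all gcn5 libraries, and the calls held without ada2b replicate 3, at 3.43-fold, 2.68-fold, 2.19-fold and 1.58-fold in that order. ZAT6 (0.58 ± 0.18, adjusted p = 0.0103) and ZAT12 (0.67 ± 0.26, adjusted p = 0.0397) passed too, but with that library left out their adjusted p values were 0.0915 and 0.324, and both calls were also lost without gcn5 replicate 3, and that of ZAT12 without gcn5 replicate 2, with no filter, or with a fit of these groups alone. ZAT7, ZAT11, ZAT5 and AZF1 did not pass. The touch genes TCH4 (log2 difference 1.30), TCH2 (1.07) and TCH3 (0.44) were higher in ada2b than in gcn5 as well. The clock genes CCA1 (-1.92), PRR9 (-1.07), GI (-0.58) and TOC1 (-0.31) were lower, and LHY (-1.09) did not pass. The part of these markers in the differences was not tested.

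Mutants of the 5 subunits of the plant-specific complex did not have the same levels. Each was tested against the mean of the other 4. The 10 genes were chosen with high values in these mutants against Col-0 known. Nothing is therefore read from the counts, and the p-values are not independent of that choice. In spc, 7 of the 10 genes were higher than that mean and 0 lower, where 8.87% of all genes were called higher. ZAT10 was 2.90-fold higher (1.53 ± 0.19, adjusted p = 3.02e-06), ZAT12 2.65-fold (1.41 ± 0.21, adjusted p = 3.04e-05), SZF1 2.46-fold (1.30 ± 0.17, adjusted p = 7.22e-06) and SZF2 1.89-fold (0.92 ± 0.12, adjusted p = 7.45e-06). ZAT7, AZF1 and ZAT6 also passed, with adjusted p of 0.0214, 0.0121 and 0.0405, but ZAT7 and AZF1 did not without spc replicate 2 or 3, and the call of ZAT6 was lost in 10 of 15 fits that left out a library, with column totals and with no filter. In ada2a, 5 genes were higher (5.31% of all genes) and 1 was lower (4.3%). SZF1 was 2.57-fold higher (1.36 ± 0.17, adjusted p = 4.57e-06), SZF2 2.04-fold (1.03 ± 0.12, adjusted p = 2.23e-06), ZAT10 1.94-fold (0.96 ± 0.19, adjusted p = 0.0015) and AZF2 1.496-fold (0.58 ± 0.14, adjusted p = 0.00889). ZAT12 was 1.96-fold higher (adjusted p = 0.00311, and 0.0547 without ada2a replicate 2). ZAT5 was the lower gene, at -0.53 ± 0.11 (adjusted p = 0.0028, and 0.0524 without ada2a replicate 1). In these comparisons the spread within the other 4 mutants is that of several genotypes, so single libraries overlapped for most genes even where the means differed.

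ZAT10, ZAT12, SZF1 and SZF2 lay below the mean of the rest in the other 3 mutants. These comparisons reuse the same libraries, so high values in ada2a and spc help to place the other 3 below that mean. Their calls are thus not separate results. ZAT7 lay below the mean of the rest in ing1 (-1.30) and sdrl (-1.15) but above it in eaf6 (0.41). In eaf6, 4 of the 10 genes were lower and 1 was higher, but 24.8% and 23.3% of all genes were called in these directions. SZF1 was 2.61-fold lower in eaf6 (-1.38 ± 0.17, adjusted p = 1.31e-07), with no overlap between its libraries and those of the other 4 mutants, and SZF2 1.67-fold lower (-0.74 ± 0.12, adjusted p = 1.13e-05). ZAT10 (adjusted p = 0.00317) and ZAT12 (adjusted p = 0.00746) were lower and ZAT6 (adjusted p = 0.0185) higher, calls that were lost without eaf6 replicate 2, without replicate 1, and without replicate 1 or 3. In sdrl, 6 genes were lower (5.99% of all genes) and ZAT5 was higher (5.86%). The calls of ZAT12 (2.03-fold, -1.02 ± 0.21, adjusted p = 0.00136) and SZF2 (1.59-fold, -0.67 ± 0.12, adjusted p = 0.000392) held in every fit that left out a library. Those of ZAT10 and ZAT6 were lost without sdrl replicate 1, of AZF2 without replicate 1 or 2, of SZF1 without replicate 2 or 3, and of ZAT5 in 9 of 15 fits, with column totals and with no filter. In ing1, ZAT10 (-0.97 ± 0.19, adjusted p = 0.0185) and SZF2 (-0.54 ± 0.12, adjusted p = 0.0495) were lower, against 0.096% of all genes, and both calls were lost when any of the 3 ing1 libraries was left out, that of SZF2 in 14 of 15 such fits in all, with other size factors or with no filter. Markers of handling and hour were called against the other 4 too. In eaf6, TCH4 (-0.87), CCA1 (-0.66), PRR9 (-0.65) and TOC1 (-0.41) were lower. In sdrl TCH4 (0.73) and CCA1 (0.53) were higher, in spc TCH2 (0.54) and TOC1 (0.27), and in ada2a PRR9 (0.87). Their part in these differences was not tested.

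Both double mutants were tested against the single mutants they hold. Values of these libraries against Col-0 also entered the choice of genes, so the counts and p-values are not independent of it. The double mutant ada2aspc had less of most of these transcripts than either parent. Against ada2a, 7 genes were lower and ZAT5 was higher, where 7.93% and 6.77% of all genes were called. Against spc, 8 genes were lower and 0 higher, where 7.02% were called lower. SZF1 was 6.20-fold lower than in ada2a (-2.63 ± 0.21, adjusted p = 1.07e-09) and 5.99-fold lower than in spc (-2.58 ± 0.21, adjusted p = 1.44e-09). ZAT10 was 4.41-fold lower than in ada2a (-2.14 ± 0.24, adjusted p = 1.83e-07) and 6.08-fold lower than in spc (-2.60 ± 0.24, adjusted p = 5.78e-09). The libraries of the double mutant did not overlap those of either parent for SZF1, SZF2, ZAT10, ZAT12, ZAT6, ZAT7, AZF1 and AZF2. The share of all genes tested that lay apart in this way was not counted, so nothing is read from this list. ZAT12 was 3.88-fold and 4.94-fold lower (adjusted p = 4.15e-06 and 3.16e-07), SZF2 2.94-fold and 2.77-fold lower (2.42e-08 and 6.04e-08), and AZF2 2.05-fold and 1.86-fold lower (0.000154 and 0.000844). ZAT7 was 4.61-fold lower than in ada2a (adjusted p = 0.0105) and 8.66-fold lower than in spc (adjusted p = 0.000469), but the first call was lost without ada2aspc replicate 1 or 3. AZF1 passed only against spc (-1.09 ± 0.25, adjusted p = 0.00342), with an adjusted p of 0.0535 against ada2a, where it was called with a pseudocount of 16, with these groups alone, and without ada2a replicate 3 or ada2aspc replicate 2. ZAT6 was lower by -0.65 ± 0.18 and -0.66 ± 0.18, and its calls were lost without ada2aspc replicate 1, ada2a replicate 2 or spc replicate 2. ZAT5 moved the other way, 1.65-fold higher than in ada2a (0.72 ± 0.14, adjusted p = 0.000587), and 0.27 ± 0.14 above spc, which did not pass.

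The double mutant spcing1 differed from spc in more of the 10 genes than from ing1, though the number called does not test which parent it is nearer. Against spc, 5 genes were lower and ZAT5 was higher, where 3.45% and 3.61% of all genes were called. ZAT12 was 3.04-fold lower (-1.60 ± 0.26, adjusted p = 0.000107), SZF1 2.93-fold (-1.55 ± 0.21, adjusted p = 1.01e-05), ZAT10 2.43-fold (-1.28 ± 0.24, adjusted p = 0.00051) and SZF2 2.22-fold (-1.15 ± 0.15, adjusted p = 6.35e-06). AZF2 (adjusted p = 0.0338) lost its call when any library was left out, and ZAT5 (adjusted p = 0.017) in 4 of 6 fits. Against ing1, ZAT5 was the 1 gene of the 10 called, 1.57-fold higher (0.65 ± 0.14, adjusted p = 0.0083), where 1.78% of all genes were called higher, and its call was lost without ing1 replicate 2 or 3 or spcing1 replicate 2. The log2 difference from ing1 was 0.02 ± 0.21 for SZF1, 0.02 ± 0.15 for SZF2, 0.06 ± 0.26 for ZAT12 and 0.72 ± 0.24 for ZAT10 (adjusted p = 0.101). The ZAT10 libraries of spcing1 lay wholly above those of ing1, and this difference was called with a fit of these groups alone (adjusted p = 0.00339). For the others, a p that misses the threshold does not show that the levels are alike.

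**Figure D5:**
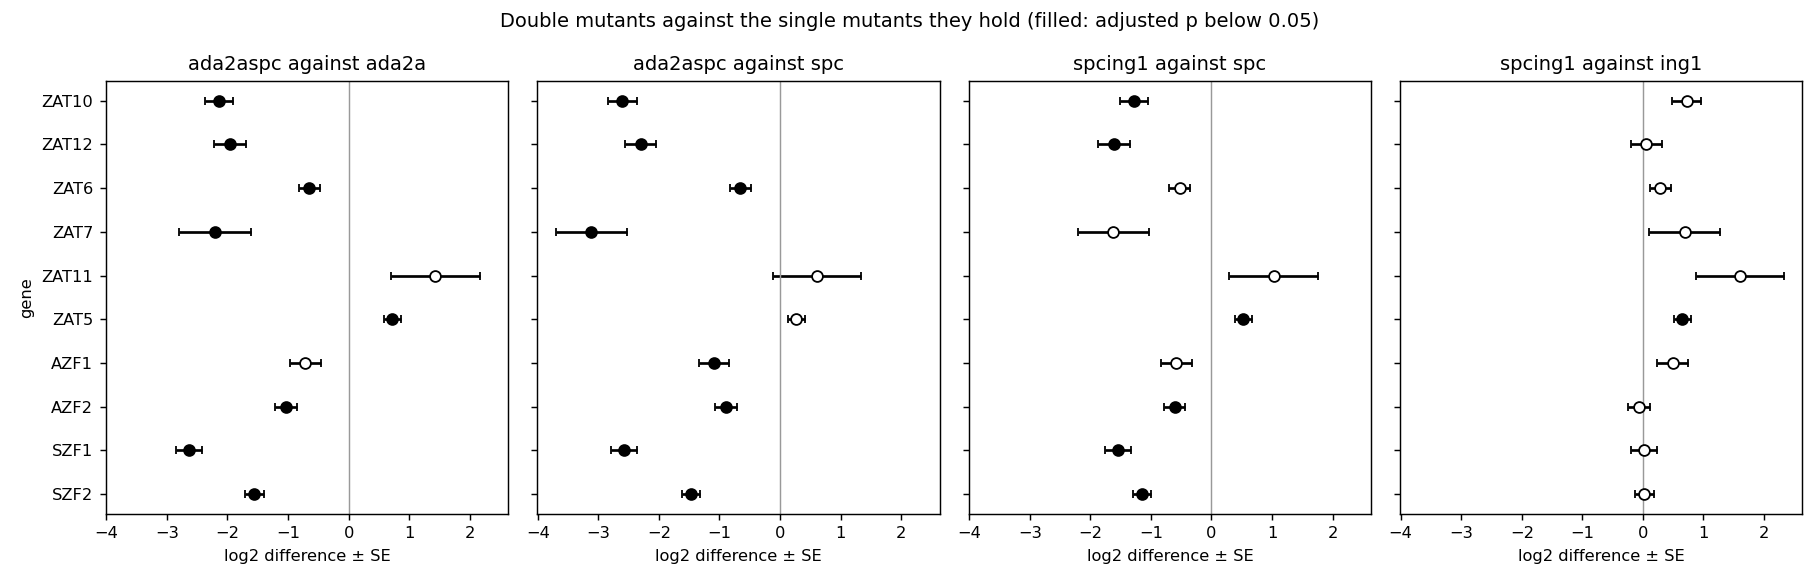
Log2 difference ± SE of each double mutant from the single mutants it holds, for the 10 genes; filled points have an adjusted p below 0.05. Most points lie left of 0 for ada2aspc against ada2a and spc and for spcing1 against spc, ZAT5 and ZAT11 lie right of it, and spcing1 against ing1 has 1 filled point (ZAT5).

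Markers of handling and hour differed in the same comparisons. TCH4 was lower in ada2aspc than in ada2a (-0.77) and spc (-0.97), and PRR9 was lower too (-1.32 and -0.99). Of the 8 genes of that list, 4 were called lower against ada2a and 5 against spc, and none of the 8 was called higher. In spcing1 against spc and against ing1, 0 of the 8 were called. Green shoot markers of ada2aspc summed to between 1289118 and 1379913, within the joint range of ada2a and spc. The part of handling or hour in the lower values of ada2aspc was not tested.

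The mean of the 5 mutants of the plant-specific complex was set beside gcn5 and ada2b as a description, since that difference was known. ZAT7 was 8.90-fold higher in that mean than in gcn5 (3.15 ± 0.46) and 9.18-fold higher than in ada2b (3.20 ± 0.46), and ZAT5 was 1.93-fold and 2.28-fold higher. No library of the 5 mutants overlapped those of gcn5 or ada2b for ZAT7 and ZAT5. ZAT6, SZF2 and ZAT12 lay the other way against ada2b, at -1.09 ± 0.14, -1.27 ± 0.12 and -0.89 ± 0.20. SZF1 was 5.53-fold above gcn5 (2.47 ± 0.17), and 0.26 ± 0.17 above ada2b, a value that was 0.69 without ada2b replicate 3, 0.02 without its replicate 2 and -0.05 with column totals.

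Over the 10 genotype means, the 10 genes fell into looser and tighter likeness, which is a description over 10 points that share the same libraries. SZF1 was close to ZAT10, AZF2 and AZF1, with Pearson's r of 0.95, 0.94 and 0.91, and ZAT10 was at 0.94 with AZF1. AZF1 and AZF2 were less alike, at 0.81. SZF2 and ZAT12 were closest to each other (0.93), and ZAT12 was at 0.87 with ZAT10 and 0.83 with ZAT6. ZAT5 was at -0.34 with SZF2 and 0.69 with ZAT7, and ZAT11 was at 0.39 or less with each of the others. Among the 9269 tested genes with a symbol, and leaving out the 10 genes themselves, those most like ZAT10 were CAF1a (0.974), a deadenylase gene, the kinase gene MKK9 (0.971) and the mitochondrial carrier gene DIC2 (0.969). SZF1 was most like the transcription factor genes WRKY40 (0.989), NAC062 (0.988) and WRKY33 (0.988). AZF2 was most like ERF13 (0.972), ORA47 (0.965) and NUDT21 (0.958), and ZAT12 most like RDUF1 (0.932), ERF5 (0.929) and RTFL12 (0.890). Among all 21868 tested genes, SZF1 ranked 14 in likeness to ZAT10, AZF1 ranked 16 and AZF2 43, and in likeness to ZAT12 SZF2 ranked 6 and ZAT10 22.

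Relatives of these genes were called in both directions. Of 10 other ZAT and AZF genes, 8 passed the filter on low values. In ada2b, AT2G28710 (-2.05), AT2G45120 (-1.44) and AT3G60580 (-1.38) were lower, and in gcn5 AT2G28710 (-1.68). In eaf6, AT3G60580 (1.37), AT2G45120 (1.06) and AZF3 (0.58) were higher, and in spc AZF3 (0.59). In the other 5 mutants 0 of the 8 were called. Over all genes tested, 24.5% were called lower in gcn5, 28.1% in ada2b, 14.5% in ada2a, 19.7% in spc, 18.2% in ing1, 18.9% in sdrl, 25.9% in eaf6, 22.8% in ada2aspc and 23.9% in spcing1. Of 9 other tandem CCCH genes, the number higher and lower was 0 and 2 in gcn5, 0 and 4 in ada2b, 4 and 1 in ada2a, 5 and 1 in spc, 4 and 1 in each of ing1, sdrl and spcing1, 3 and 1 in eaf6, and 2 and 1 in ada2aspc. TZF5 had the widest range: it was at 1634 in Col-0, lower in gcn5 (890.4) and ada2b (202), and higher in the other 7 mutants (4352 to 7735). TZF7 was lower in 8 mutants, without gcn5, TZF2 was lower in gcn5 (-0.51) and ada2b (-1.30), and AT5G12850 was higher in 5 mutants by 0.22 to 0.43.

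Genes listed as upstream stress signalling included some with large differences. Whether they act on the 10 genes in these seedlings was not tested. Of 15 such genes, the number higher and lower was 3 and 4 in gcn5, 7 and 4 in ada2b, 9 and 0 in ada2a, 9 and 0 in spc, 8 and 1 in ing1, 9 and 1 in sdrl, 10 and 1 in eaf6, 8 and 0 in ada2aspc, and 9 and 1 in spcing1. MKK9, a mitogen-activated protein kinase kinase gene, was higher in all 9 mutants, from 452 in Col-0 to 887 in gcn5, 1948 in ada2b and 2634 in spc. MPK3, which encodes a kinase that phosphorylates ZAT10, was at 3507 in Col-0, lower in gcn5 (2678), and higher in the other 8, up to 16220.3 in ada2a. RBOHD, the respiratory burst oxidase gene, was at 2126 in Col-0, lower in gcn5 (1324) and ada2b (837), and higher in the other 7 (5302 to 7897). CAMTA3, a calmodulin-binding transcription activator gene, was higher in 8 mutants, without gcn5.

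Genes reported as regulated by the ZAT and AZF proteins had no common direction. Of 9 listed, 8 were tested, and 1 was higher and 4 lower in gcn5, 2 and 3 in ada2b, 4 and 2 in ada2a, 4 and 1 in spc, 4 and 1 in ing1, 3 and 1 in sdrl, 4 and 2 in eaf6, 3 and 1 in ada2aspc, and 3 and 1 in spcing1. RD29A, a cold and drought response gene, was lower in all 9 mutants, by -0.51 in gcn5 to -2.23 in eaf6. LOX3, a jasmonate synthesis gene, was at 395 in Col-0, lower in gcn5 (121) and ada2b (199.7) and higher in the other 7 (622 to 1096). APX1, the ascorbate peroxidase gene linked to ZAT12, was higher in gcn5 (0.58), ada2b (0.69), ada2a (0.32), spc (0.38), ing1 (0.33) and eaf6 (0.36). PCS1, the phytochelatin synthase gene linked to ZAT6, was higher in 8 mutants, without gcn5, by 0.29 in ada2b to 1.22 in ada2a. Of 8 corepressor genes whose products bind EAR motifs or act with such proteins, at most 4 were called in a mutant. The histone deacetylase gene HDA19 was higher in 7 mutants by 0.13 to 0.36, TPL in 4 by 0.21 to 0.40, HDA6 in gcn5 (0.37) and ada2b (0.35), and TPR3 was lower in gcn5 (-0.77), spc (-0.26) and spcing1 (-0.31).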

How the data were processed

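The submitters' processing notes name the tools HISAT2, edgeR and bcl2fastq and the genome build TAIR10; tool versions and settings, the counter and the use of strand are not given in the sources used here. A single table was deposited: the authors give a normalised signal per gene, not read counts, and no header records the scaling, so depth per library is unknown beyond the column totals. Values below 1e-06, which stand for 0 (252669 of them), were set to 0. Each column was matched to its sample by title.

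A gene was tested if its signal reached 10 in 3 or more libraries (21868 of 32548), with limma 3.58.1 in R 4.3.3 on log2(signal + 1), with a term per genotype, all 30 libraries, a variance trend, 20 residual degrees of freedom and Benjamini-Hochberg adjustment at 0.05 over all genes tested. The fit was tested on simulated data. Members, lists and tests were chosen with earlier results of these data known. Tests were kept for contrasts between mutants, whose libraries also entered the choice of genes, so their p-values are not independent of it. Contrasts with Col-0, and of the 5 mutants with gcn5 or ada2b, are descriptions. Named genes were all 10 members, up to 4 genes of each list with the smallest adjusted p in any contrast with Col-0, the 3 genes with a symbol most like ZAT10, ZAT12, AZF2 and SZF1 by Pearson's r over genotype means, and the mutated genes. AT3G46080 was added as a neighbour of ZAT7 with a similar coding sequence after its values were seen. Upstream windows, gene positions and coding sequences came from TAIR10.1, read with Biopython 1.88; coding sequences were compared by pairwise alignment. Alternatives were size factors from median ratios, division by column totals, no filter, a pseudocount of 16, a fit restricted to the groups of a contrast, a replicate block, and leaving out each library. Plots used matplotlib 3.10.9 in Python 3.11.15.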

Additional observations from a re-analysis of the deposited data

How the results depend on the processing

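The deposited scaling is not recorded, no depth per gene could be had, and low genes (ZAT11, and ZAT7 outside the mutants where it is high) were measured with wide error. No called value of the 10 genes changed direction under any setting run. The replicate numbers do not pair the libraries: residuals of libraries with the same number correlated at -0.111 to 0.0870, 0 of 135 pairs exceeded 0.1, and 8 of 30 libraries correlated best with their own number. With a replicate block, 9 of the 10 genes were called between ada2aspc and ada2a (8 without it, AZF1 being the gain), ZAT6 was no longer called in spc against the other 4 (adjusted p = 0.0501 by limma), AZF2 was (0.0492), and 9214 genes between ada2b and gcn5 became 9128. Of 100 tested values of the 10 genes, 97 kept their call with the block, 98 with other size factors, 97 with column totals, 96 with no filter, 95 with a pseudocount of 16 and 87 with only the groups compared, where 12 became called.

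Dividing by column totals moved the median log2 difference of all genes to between -0.15 (spcing1) and 0.27 (ada2b) against Col-0, and the share of all calls that were higher from 42.6% to 68.6% in gcn5, 45.6% to 69.8% in ada2b, 51.0% to 34.9% in ada2a, 50.8% to 36.9% in spc, 49.0% to 38.1% in ing1, 47.4% to 35.3% in sdrl, 48.8% to 38.0% in ada2aspc and 46.7% to 33.8% in spcing1. Between mutants it moved from 46.4% to 56.7% for ada2b against gcn5 and from 63.2% to 48.8% for spcing1 against ing1. Against the mean of the other 4 it moved from 55.3% to 41.2% in ada2a, 65.5% to 48.4% in spc, 49.5% to 38.2% in sdrl and 48.5% to 67.3% in eaf6, and for the mean of the 5 mutants from 52.1% to 29.4% against gcn5 and 51.8% to 33.2% against ada2b.

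With only the groups compared, 2 of the 10 genes differed between spcing1 and ing1. For ing1 against the other 4, that fit called 186 genes in all and 6 of the 10, against 46 and 2; other size factors and no filter each called 1 of the 10. Leaving out each library in turn, the 10 genes called were 5 to 7 in sdrl against Col-0, 0 to 1 in spcing1 against ing1, and, against the other 4, 4 to 8 in spc, 0 to 3 in ing1, 3 to 7 in sdrl and 3 to 6 in eaf6. All genes called were 228 to 760.0 in spcing1 against ing1 (617 with all libraries), and, against the other 4, 615 to 2415 in ada2a (2103), 1685 to 3137 in spc (2961), 9 to 55 in ing1 (46) and 1076 to 2646 in sdrl (2590.0). The cause was not tested.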
